A study of Mus musculus with 6 samples.

Results

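The genes described here are the 10 members of the insulin-like growth factor (IGF) system that were picked by name from the 41819 genes of the deposited table: the ligand genes Igf1 and Igf2, the receptor genes Igf1r and Igf2r, and the binding protein genes Igfbp2, Igfbp3, Igfbp4, Igfbp5, Igfbp6 and Igfbp7. The rule is a list of names and sets no threshold on a measured value. Of these 10 genes, 7 passed the filter on low counts that 11509 genes of the table passed, and Igfbp2, Igfbp3 and Igfbp5 did not. The RNA came from a single clone of mouse 3T3 embryonic fibroblasts transduced with a lentiviral TetOne cassette for human PARG (hPARG), the enzyme that degrades poly(ADP-ribose), together with the fluorescent protein mClover3. The 3 control dishes (not induced) received no doxycycline, and the 3 hPARG dishes received 500 ng/ml doxycycline for 72 h. Both groups carried the cassette and grew in medium with puromycin and serum. Doxycycline without the cassette was not analysed here, so doxycycline and hPARG cannot be told apart. The culture vessel is a well of a 6-well plate in the labels and a 10 cm dish in the methods, and is called a dish here. The methods describe the dishes as split from cells of this clone the day before doxycycline was added, and no source names separate passages. The p-values therefore measure the spread between sister dishes, which may be technical.

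IGF-I and IGF-II are small secreted growth factors related to insulin. They signal through the tyrosine kinase encoded by Igf1r, whereas the receptor encoded by Igf2r takes IGF-II to lysosomes for degradation and also sorts lysosomal enzymes that carry mannose 6-phosphate. Secreted binding proteins hold the ligands outside the cell and limit or prolong their access to the receptor. Mouse fibroblasts in culture are a classical system for the IGF-I receptor, whose ligand acts with other serum factors to drive cell division.

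The labelled cell type was checked first. All 11 fibroblast genes looked up passed the filter, 10 of them had a mean over 1 RPKM (the read count of a gene scaled by its length and by library size), and their summed level was 3448 to 3879 RPKM in control and 3640 to 4115 RPKM in hPARG dishes. Most of this sum came from Vim and S100a4 (means of 1548 and 1389 RPKM over all dishes), and Pdgfrb was lowest at 0.685 RPKM. The summed RPKM was 0.296 to 0.45 in control and 0.269 to 0.464 in hPARG dishes for 6 epithelial genes, 0.173 to 0.247 and 0.13 to 0.152 for 4 endothelial genes, and 0.277 to 0.718 and 0.255 to 0.534 for 6 adipocyte genes. It was 5.62 to 6.27 and 3.88 to 5.80 RPKM for 6 macrophage and leukocyte genes, mostly from Cd14, and 1.25 to 1.46 and 1.42 to 1.83 RPKM for 4 skeletal muscle genes, mostly from Des. The defining genes Adgre1, Plin1 and Myod1 had 0 counts in every dish. Each dish gave between 21619908 and 25263818 counts, and 3 counts, taken as the floor of detection, corresponded to 0.119 to 0.139 CPM (counts scaled to library size). The CPM values of genes given below also include TMM scaling factors, which these floors do not. Floors and counts cover counting error only.

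The dishes numbered 2 stood apart from the others in both groups. The deviation of each dish from its group mean was positively related to exon length in control dish 2 (Spearman's rho = 0.53 over 11509 genes) and in hPARG dish 2 (0.521), and negatively in the other 4 dishes (from -0.513 to -0.252). Deviations within a group cancel for each gene, so the negative relations follow in part from the positive ones. In the tenth of genes with the longest exons (1151 genes), the median deviation was 0.247 (log2) in control dish 2 and 0.243 in hPARG dish 2. Igf1r lies at the 98.3 percentile of exon length, Igf2r at the 87.5, Igfbp6 at the 2.82 and Igfbp7 at the 3.55, so values are given below with and without the dishes numbered 2.

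The region in front of each binding protein gene is shown first, because these 6 genes divide into 3 that the cells expressed well (Igfbp4, Igfbp6, Igfbp7) and 3 near the floor (Igfbp2, Igfbp3, Igfbp5). Each line holds the 100 bases before the RefSeq start of the gene (GRCm38.p6), 5′ to 3′ on the strand of the gene, with capitals marking TATAAA and GGGCGG (GC box) on either strand, the latter reading CCGCCC when reversed. All 10 members had such a window among the 32851 windows of RefSeq genes.
Igfbp4 (chr11:99041144-99041243, plus strand): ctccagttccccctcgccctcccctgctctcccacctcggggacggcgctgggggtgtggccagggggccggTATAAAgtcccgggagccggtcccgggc
Igfbp6 (chr15:102144086-102144185, plus strand): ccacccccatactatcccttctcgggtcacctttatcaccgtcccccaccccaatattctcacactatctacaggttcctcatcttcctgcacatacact
Igfbp7 (chr5:77408046-77408145, minus strand): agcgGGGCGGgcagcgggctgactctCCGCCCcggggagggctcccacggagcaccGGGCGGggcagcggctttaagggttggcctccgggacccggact
Igfbp2 (chr1:72824380-72824479, plus strand): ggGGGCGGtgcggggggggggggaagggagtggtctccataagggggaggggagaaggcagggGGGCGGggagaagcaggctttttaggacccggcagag
Igfbp3 (chr11:7213924-7214023, minus strand): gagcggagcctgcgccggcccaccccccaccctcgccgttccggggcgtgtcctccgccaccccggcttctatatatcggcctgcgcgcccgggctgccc
Igfbp5 (chr1:72874866-72874965, minus strand): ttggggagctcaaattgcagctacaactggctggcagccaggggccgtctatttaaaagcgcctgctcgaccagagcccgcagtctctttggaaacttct

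TATAAA was present in front of Igfbp4 alone among the 6, and in 5.56% of all windows. A GC box was present in front of Igfbp7, with 3 matches, and of Igfbp2, with 2, and in 24.7% of all windows. The windows held 8 CpG dinucleotides for Igfbp4, 2 for Igfbp6, 11 for Igfbp7, 4 for Igfbp2, 13 for Igfbp3 and 4 for Igfbp5, against a median of 3. Thus neither motif nor the CpG number parted the 3 expressed genes from the 3 near the floor. The RefSeq start of Igfbp6 lies 176 bases upstream of the GENCODE start, and that of Igfbp5 lies 19 bases downstream, so the last 19 bases of its window are in the GENCODE exon.

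The 10 genes fell into 2 blocks of level, with 5 genes over a mean of 1 RPKM and 5 below it. Averaged over the 6 dishes, the order was Igfbp4 (58.2 RPKM), Igfbp6 (31.5), Igfbp7 (27.0), Igf2r (18.7) and Igf1r (7.19), followed by Igf2 (0.113), Igfbp2 (0.0988), Igf1 (0.0668), Igfbp3 (0.0594) and Igfbp5 (0.0416). Thus the clone made RNA for both receptors and for 3 binding proteins, while Igf1 and the binding protein genes of the lower block were close to the floor of detection. The level of Igf2 cannot be set apart from that of an overlapping gene, as described below. Igfbp4 stood above all other members in every dish and at the 92.0 to 93.5 percentile of the genes with an RPKM above 0. Igfbp6 and Igfbp7 overlapped in the control dishes, Igf2r in the dishes numbered 2 (25.8 and 25.9 RPKM) reached into the range of Igfbp7 over the 6 dishes, and all Igf1r values lay below all Igf2r values. The 5 genes of the lower block overlapped one another, and their order is not resolved.

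**Figure D1:**
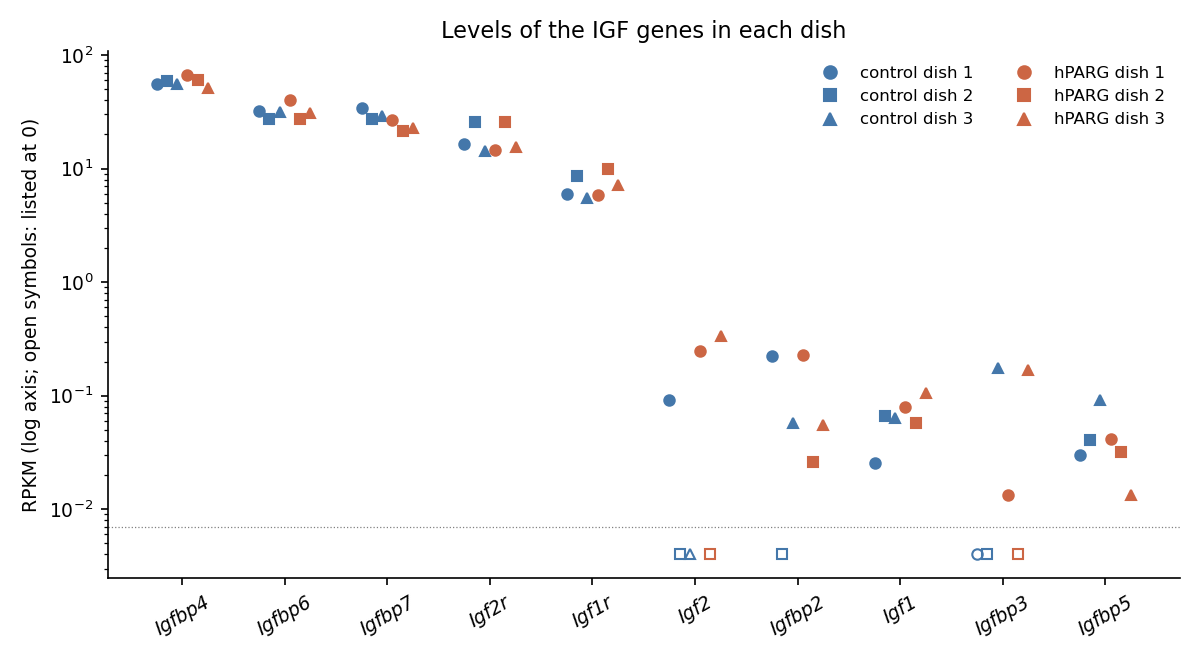
RPKM (log axis) of the 10 IGF genes in each of the 6 dishes, ordered by mean level, with control dishes in blue and hPARG dishes in orange, and with open symbols under the dotted line for dishes listed at 0. The genes from Igfbp4 to Igf1r lie between 5.48 and 67.1 RPKM and the other 5 at or below 0.338 RPKM.

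None of the 7 IGF genes tested passed the threshold between hPARG and control dishes. With edgeR's quasi-likelihood test and Benjamini-Hochberg adjustment over 11509 genes, 0 of 7 were called at an FDR under 0.05, at any fold or with a more than 2-fold difference, against 10 of all 11509 tested genes (0.0869%) by either rule. DESeq2 called 0 of the 7 as well, and 0 of the 7 had an unadjusted p under 0.05 in the edgeR fit, against 3.95% of all tested genes. No member had groups that did not overlap in TMM-normalized CPM, against 9.62% of all tested genes. The fitted difference was higher in hPARG for 6 genes and lower for 1, Igfbp7, with a median log2 fold change of 0.15 against 0.0038 over all tested genes. In all of these RNA measurements, fewer cells that express a gene and less RNA per cell cannot be told apart.

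**Figure D2:**
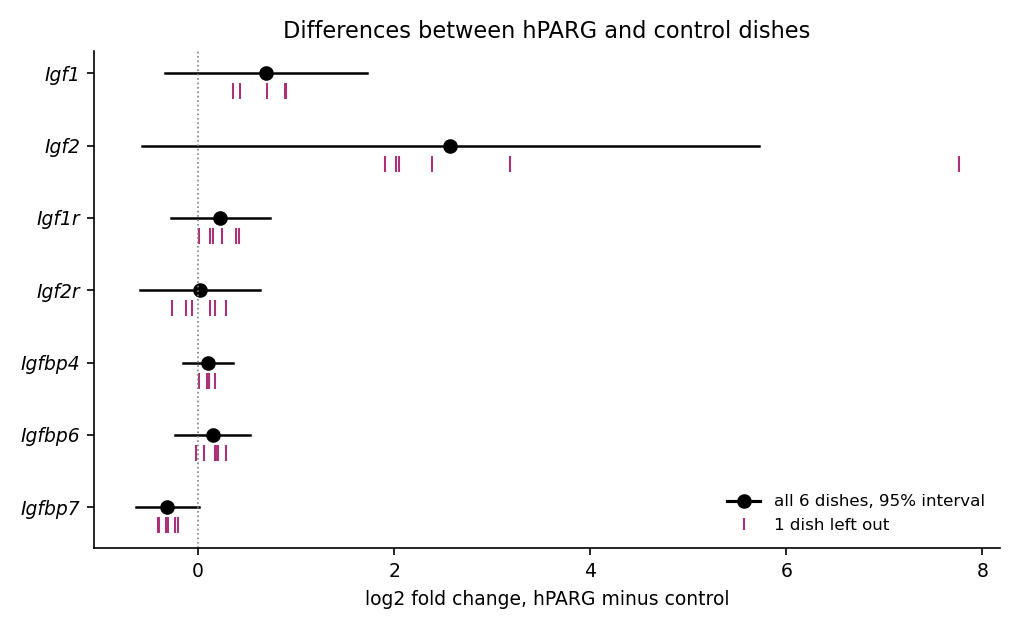
Fitted log2 fold change, hPARG minus control, of the 7 tested IGF genes (black points, with 95% intervals from the edgeR fit as bars) and the same value with each dish left out in turn (purple ticks). Every interval includes 0, and that of Igfbp7, from -0.64 to 0.01, does so most narrowly.

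Igf1, the ligand that growth hormone induces in liver and other tissues (ENSMUSG00000020053, chr10:87858265-87937042, plus strand of GRCm38), was near the floor. It had 7, 16 and 15 counts in control dishes 1, 2 and 3, and 19, 15 and 26 counts in hPARG dishes 1, 2 and 3 (values by dish are given in this order throughout). The hPARG dishes held both highest values, and hPARG dish 2 lay within the control range. The mean was 0.556 ± 0.245 CPM in control and 0.894 ± 0.288 CPM in hPARG dishes (SD, n = 3 each). The log2 fold change was 0.69 (SE 0.446, 95% interval -0.34 to 1.73, adjusted p = 0.999), a difference within the spread between dishes. It lay between 0.36 (without control dish 1) and 0.90 (without hPARG dish 2) when 1 dish was left out. Without the dishes numbered 2 the Igf1 counts no longer overlapped and the log2 fold change was 1.10 (SE 0.601, adjusted p = 0.791), over 1.5 times the value with all dishes.

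Igf2, the fetal growth factor expressed from the paternal allele (ENSMUSG00000048583, chr7:142650766-142666816, minus strand), had the widest interval. It had 14, 0 and 0 counts in control dishes and 33, 0 and 46 counts in the hPARG dishes. A count of 0 came from both dishes numbered 2 and from control dish 3, so the groups shared their lowest value, while hPARG dishes 1 and 3 were above every control dish. The mean was 0.182 ± 0.316 CPM in control and 1.21 ± 1.09 CPM in hPARG dishes (SD, n = 3 each), with a log2 fold change of 2.57 (SE 1.36, 95% interval -0.57 to 5.72, adjusted p = 0.999). Leaving out 1 dish moved this value between 1.90 (without hPARG dish 3) and 7.76 (without control dish 1, which leaves the control at 0 counts, so that the fitted value is no bound). Leaving out both dishes numbered 2 gave 2.62 (SE 0.773, adjusted p = 0.362).

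The Igf2 counts cannot be read apart from those of a gene that shares its exons. Gm49394 (ENSMUSG00000115302, chr7:142650769-142669942, minus strand) is annotated on the same strand with 1 transcript of 5 exons, and 3596 exon bases are common to both genes, 62.8% of those of Igf2 and 75.9% of those of Gm49394. All 540 coding bases of transcript Igf2-201 lie in Gm49394 exons, whereas 0 of the 1038 coding bases annotated for Gm49394 lie in Igf2 exons. The junctions into the first shared exon, which begins at base 142655816 of chromosome 7, are shown because the Igf2 transcripts and Gm49394 enter the same exon from different exons before it. Below, the last 15 bases of the exon before are in lower case and the first 15 bases of the shared exon are in capitals (GENCODE M21 transcripts, 5′ to 3′). The Igf2 lines are a selection. Igf2-202 has the same junction as Igf2-201, Igf2-206 has that of Igf2-204, and the different junction of Igf2-207 is not printed.
Gm49394-201: agtctttcctcagagGTACCAATGGGGATC
Igf2-201: cttacccaacttcagGTACCAATGGGGATC
Igf2-203: ccctgcagttcactgGTACCAATGGGGATC
Igf2-204: accttcggccttgtgGTACCAATGGGGATC
Igf2-205: gtcgccggcttccagGTACCAATGGGGATC

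Gm49394 received 82, 98 and 93 counts in control dishes and 78, 169 and 66 counts in the hPARG dishes. The 3 dishes in which Igf2 was at 0 were those with the most Gm49394 counts. Its log2 fold change was 0.21 (SE 0.322, adjusted p = 0.999, edgeR). The sum of both genes, added after these values were seen, was 96, 98 and 93 counts in control and 111, 169 and 112 counts in hPARG dishes, or 3.75, 4.22 and 4.38 CPM against 5.09, 6.97 and 5.14 CPM. The summed values were higher in all 3 hPARG dishes than in any control dish, as they were for 3.61% of all tested genes. In the edgeR fit the sum differed by 0.48 (log2, SE 0.178, unadjusted p = 0.0277, adjusted p = 0.999 over 11508 genes), by 0.31 without hPARG dish 2, and by 0.34 without both dishes numbered 2 (SE 0.223, adjusted p = 0.852). The antisense gene Igf2os, which shares 98 bases with Igf2, and the microRNA gene Mir483 in an Igf2 intron had 0 counts in every dish.

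**Figure D3:**
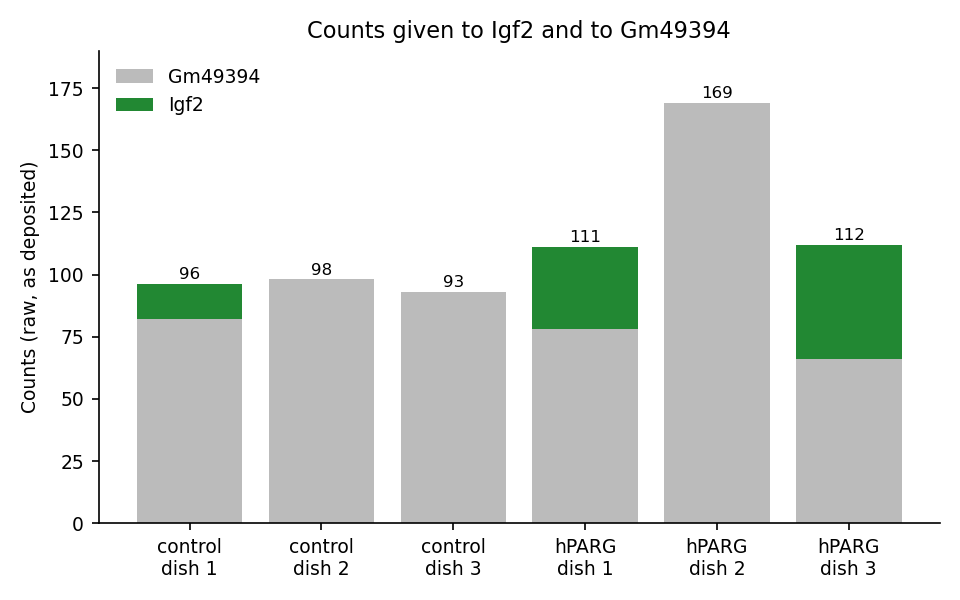
Counts as deposited of Igf2 (green) stacked on those of Gm49394 (grey) in each dish, with the sum printed above each bar. Control sums lie between 93 and 98 and hPARG sums between 111 and 169, while Igf2 alone is at 0 in control dishes 2 and 3 and in hPARG dish 2.

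Igf1r, the signaling receptor (ENSMUSG00000005533, chr7:67952827-68233668, plus strand, 16791 exon bases), had 1884, 2396 and 1483 counts in control dishes and 1589, 2965 and 2030 counts in the hPARG dishes. In TMM-normalized CPM these were 73.5, 103 and 69.9 in control and 72.8, 122 and 93.1 in hPARG dishes. Dish 2 was the highest of each group, and the ranges overlapped widely. The mean was 82.2 ± 18.2 CPM in control and 96.1 ± 24.8 CPM in hPARG dishes (SD, n = 3 each). The log2 fold change was 0.23 (SE 0.218, 95% interval -0.28 to 0.73, adjusted p = 0.999), smaller than the difference between dishes of a group. It lay between 0.01 (without hPARG dish 2) and 0.42 (without control dish 2) when 1 dish was left out, and was 0.21 (SE 0.115, adjusted p = 0.786) without both dishes numbered 2.

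Igf2r, the receptor that clears IGF-II (ENSMUSG00000023830, chr17:12682406-12769664, minus strand, 9308 exon bases), had 3982, 5571 and 3009 counts in control dishes and 3115, 6006 and 3374 counts in the hPARG dishes. The same dish stood out more clearly than for Igf1r, with 239.6 CPM in control dish 2 and 248 CPM in hPARG dish 2, against 142 to 155 CPM in the other control and 143 to 155 CPM in the other hPARG dishes. The mean was 179 ± 53.0 CPM in control and 182 ± 57.3 CPM in hPARG dishes (SD, n = 3 each), a log2 fold change of 0.02 (SE 0.263, 95% interval -0.59 to 0.63, adjusted p = 0.999). Without the dishes numbered 2 it was 0.01 with a smaller error (SE 0.0918, adjusted p = 1.00). Its sign was turned by leaving out control dish 1, control dish 3 or hPARG dish 2, by using library size only and by a correction for exon length. No exon of another gene overlaps those of Igf2r, and Airn, the antisense RNA that silences the paternal Igf2r allele in many tissues, had 0 counts in every dish.

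Igfbp4, which binds both ligands and is known mainly as an inhibitor of IGF action (ENSMUSG00000017493, chr11:99041244-99054392, plus strand), was the most abundant member. It had 5987, 5630 and 5176 counts in control dishes and 6316, 6148 and 5000 counts in the hPARG dishes. The control dishes were close together at 234, 242 and 244 CPM, while the hPARG dishes ran from 229 CPM in dish 3 to 289.5 CPM in dish 1 and enclosed them. The mean was 239.9 ± 5.51 CPM in control and 257 ± 30.3 CPM in hPARG dishes (SD, n = 3 each). The log2 fold change was 0.10 (SE 0.111, 95% interval -0.16 to 0.36, adjusted p = 0.999), 0.0084 without hPARG dish 1, and 0.12 without the dishes numbered 2 (SE 0.111, adjusted p = 0.904). Igfbp4 has 4416 exon bases, near the middle of all tested genes, and its dishes numbered 2 did not stand apart.

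Igfbp6, which prefers IGF-II over IGF-I (ENSMUSG00000023046, chr15:102144362-102149511, plus strand, 1112 exon bases), had 975, 737 and 829 counts in control dishes and 1071, 790 and 856 counts in the hPARG dishes. This gave 38.1, 31.7 and 39.1 CPM in control and 49.1, 32.6 and 39.3 CPM in hPARG dishes. Dish 2 was the lowest of each group, opposite to the receptors, and hPARG dish 1 was above all others. The mean was 36.3 ± 3.99 CPM in control and 40.3 ± 8.32 CPM in hPARG dishes (SD, n = 3 each), with a log2 fold change of 0.15 (SE 0.165, 95% interval -0.23 to 0.53, adjusted p = 0.999). Without hPARG dish 1 it was -0.0151, and without both dishes numbered 2 it was 0.20 (SE 0.113, adjusted p = 0.803).

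Igfbp7, a secreted protein of vessel walls and stroma that binds the ligands only weakly (ENSMUSG00000036256, chr5:77349240-77408041, minus strand, 1209 exon bases), was the member with the largest difference relative to its error. It had 1144, 803 and 828 counts in control dishes and 783, 676 and 684 counts in the hPARG dishes. In TMM-normalized CPM these were 44.7, 34.5 and 39.0 in control and 35.9, 27.9 and 31.4 in hPARG dishes. The groups overlapped only in that hPARG dish 1 lay above control dish 2. On the deposited RPKM scale the groups did not overlap, with 27.4 to 34.5 RPKM in control and 21.4 to 27.0 RPKM in hPARG dishes. That scale uses no TMM factors. On it 10.0% of all tested genes did not overlap in either direction, and 7.69% were lower in hPARG dishes without overlap. In TMM-normalized CPM, in which Igfbp7 overlapped, these shares were 9.62% and 6.00%. Whether the separation in RPKM came from the scaling was not tested. The mean was 39.4 ± 5.06 CPM in control and 31.7 ± 4.03 CPM in hPARG dishes (SD, n = 3 each), 0.804 times the control level. The log2 fold change was -0.31 (SE 0.139, 95% interval -0.64 to 0.01), with an unadjusted p of 0.0545 in the edgeR fit, which ranks 491 among 11509 genes, and an adjusted p of 0.999. It lay between -0.41 (without hPARG dish 1) and -0.21 (without control dish 1) when 1 dish was left out and was -0.31 without the dishes numbered 2 (SE 0.109, adjusted p = 0.51).

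Without the dishes numbered 2, the groups of 4 of the 7 tested members did not overlap: Igf1, Igf2 and Igfbp6, which were higher in hPARG dishes, and Igfbp7, which was lower. With 2 dishes against 2, the same held for 35.4% of 11589 tested genes, and no member was called at an FDR under 0.05 by edgeR.

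**Figure D4:**
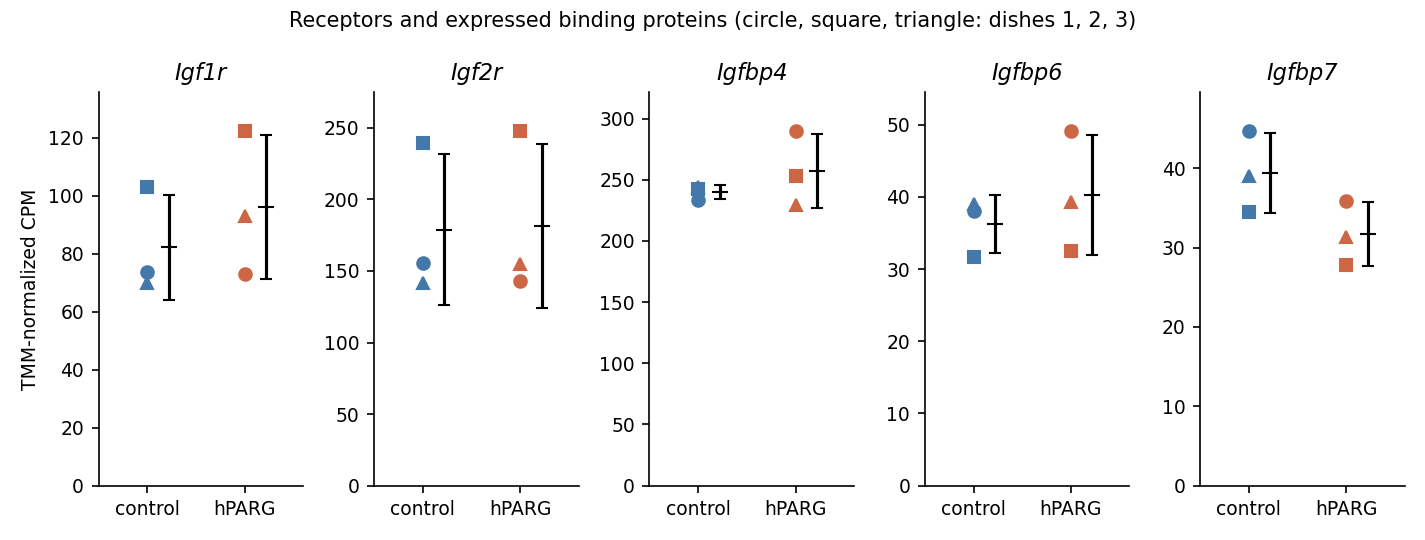
TMM-normalized CPM (linear axes from 0, a separate scale for each gene) of the receptors and the 3 expressed binding proteins, with circles, squares and triangles for dishes 1, 2 and 3, blue for control and orange for hPARG, and with bars for the mean and SD of the 3 dishes. Dish 2 is the highest for Igf1r and Igf2r and the lowest for Igfbp6 and Igfbp7 in both groups, and Igfbp7 has means of 39.4 in control and 31.7 in hPARG dishes.

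The exons of Igfbp7 share 85 bases (7.03%) with Polr2b, a gene for a subunit of RNA polymerase II on the opposite strand. Polr2b had 3195, 3145 and 2379 counts in control and 2355, 3138 and 2276 counts in hPARG dishes, with a log2 fold change of -0.12 (SE 0.123, adjusted p = 0.999, edgeR). Whether strand was used in counting is not given in the sources used here, and the part of Polr2b reads in the Igfbp7 counts was not tested.

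The other binding protein genes gave too few counts for a test. Igfbp2 (ENSMUSG00000039323, chr1:72824503-72852474, plus strand) had 9, 0 and 2 counts in control and 8, 1 and 2 counts in the hPARG dishes, so that dish 1 was the highest in each group. Igfbp3 (ENSMUSG00000020427, chr11:7206086-7213923, minus strand), the main carrier of IGF in blood, had 0, 0 and 13 counts in control and 1, 0 and 13 counts in hPARG dishes, nearly all from dishes 3. Igfbp5 (ENSMUSG00000026185, chr1:72857932-72874884, minus strand), which lies next to Igfbp2 in the opposite orientation, had 5, 6 and 13 counts in control and 6, 5 and 2 counts in hPARG dishes. At most 1 dish per group was over 8 counts for each of these 3 genes, and differences between the groups were not detectable at this depth. With the filter lifted, the fitted log2 fold changes were 0.10 for Igfbp2, 0.11 for Igfbp3 and -0.85 for Igfbp5, with adjusted p = 0.998 each (edgeR).

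Ratios within a dish do not depend on library size, and those given here were chosen after the values were seen and are a description without a test. The 6 binding protein genes together reached 114 to 122 RPKM in control and 106 to 135 RPKM in hPARG dishes. Igfbp4 made up 45.5 to 51.9% of this sum in control and 48.7 to 55.2% in hPARG dishes, and Igfbp6 made up 24.0 to 27.0% and 25.0 to 29.8%. Igfbp7 made up 28.2, 24.0 and 24.8% in the control dishes and 20.1, 19.7 and 21.6% in the hPARG dishes, without overlap. The ratio of Igfbp6 to Igfbp7 RPKM, 2 genes of similar exon length, was 0.927, 0.998 and 1.09 in control and 1.49, 1.27 and 1.36 in hPARG dishes. It did not overlap either, but rests on the same Igfbp7 values as the share. The ratio of Igf2r to Igf1r RPKM was 2.71, 2.985 and 2.605 in control and 2.52, 2.60 and 2.13 in hPARG dishes, which lay below all control values. Dish 2 again had the highest ratio of each group, and these genes differ in exon length. The ratio of Igfbp4 to Igfbp6 overlapped between the groups (1.74 to 2.165 in control and 1.655 to 2.205 in hPARG dishes). So did that of Igfbp4 to Igf1r (6.83 to 10.15 and 6.03 to 11.56). How often the ratios of other genes part the groups was not counted.

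The genes whose pattern over the 6 dishes was most like that of 2 members were found from the root mean square difference of centred log2 CPM. For Igfbp4, the most abundant member, they were Cyp4f13 (0.0300), Pck2 (0.0401) and Alas1 (0.0415), against a median of 0.205 over the tested genes. For Igfbp7, the member with the largest difference relative to its error, they were Taf6l (0.0409), Twist2 (0.061) and Trp53rkb (0.0645), against a median of 0.273. The log2 fold changes were 0.087 for Cyp4f13, 0.124 for Pck2 and 0.026 for Alas1. They were -0.30 for Taf6l, -0.41 for Twist2, a transcription factor of mesenchymal cells, and -0.22 for Trp53rkb. The difference between the groups is part of the match, so fold changes like those of the member follow from the selection. Values below the median follow from it too.

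The wider pathway was read from 7 lists with 76 genes, of which 53 passed the filter. With edgeR's test 0 of the 53 were called at an FDR under 0.05 (0.0869% of all tested genes) and 1, Nagpa, had an unadjusted p under 0.05 (3.95% of all tested genes). In the fit 33 were higher and 20 lower in hPARG dishes, with a median log2 fold change of 0.03. The groups of 4 of the 53 did not overlap in TMM-normalized CPM, with Adam9 higher and Grb14, Stc2 and Nagpa lower in hPARG dishes, against 9.62% of all tested genes (3.61% higher and 6.00% lower). DESeq2 called 0 of the 53.

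Among 10 genes of the IGF and insulin system outside the members, 4 passed the filter and all 4 were higher in the fit, with log2 fold changes from 0.08 to 0.25 and no call. They were Insr, the insulin receptor (3.54 ± 0.772 RPKM in control and 3.90 ± 0.932 RPKM in hPARG dishes), and the genes of the 3 proteins that bind Igf2 messenger RNA. Igf2bp2 was at 29.2 ± 5.95 and 30.1 ± 6.41 RPKM and Igf2bp3 at 14.6 ± 2.27 and 15.3 ± 1.88 RPKM, while Igf2bp1 had the largest difference, 0.25 (SE 0.145, adjusted p = 0.999). The insulin genes Ins1 and Ins2 had 0 counts in every dish.

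Of 12 adaptors and substrates that carry the signal away from the receptor, 10 passed the filter and none was called, with 8 higher and 2 lower in the fit. The most abundant were Grb2 (31.6 ± 3.32 RPKM in control and 32.0 ± 1.92 RPKM in hPARG dishes) and Shc1 (30.3 ± 1.54 and 29.7 ± 0.434 RPKM), both of which link the receptor to RAS. The largest difference was that of Irs2, the docking protein for PI3-kinase, with a log2 fold change of 0.12 (SE 0.201, adjusted p = 0.999). All 19 genes of the PI3-kinase, AKT, mTOR and FOXO list passed the filter, with 11 higher, 8 lower, a median log2 fold change of 0.04 and no call. Akt1, the kinase at the centre of the list, was at 99.8 ± 7.72 RPKM in control and 97.2 ± 11.9 RPKM in hPARG dishes, and Rheb, the activator of mTOR, at 80.1 ± 1.01 and 76.1 ± 4.39 RPKM. The largest difference was that of Foxo3, a transcription factor that AKT inactivates, with a log2 fold change of -0.28 (SE 0.247, adjusted p = 0.999).

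Of 8 proteases that cut the binding proteins, and inhibitors of these proteases, 4 passed the filter. Adam9 was at 33.8 ± 3.30 RPKM in control and 37.1 ± 2.84 RPKM in hPARG dishes (log2 fold change 0.17, SE 0.0975), and Adamts1 at 18.9 ± 3.48 and 21.6 ± 2.90 RPKM (0.23, SE 0.144). Htra1, a serine protease, had the largest difference at -0.25 (SE 0.158), and all 4 genes had adjusted p = 0.999 in the edgeR fit. Pappa, the metalloprotease that cleaves IGFBP-4, did not pass the filter, with 3, 2 and 2 counts in control and 0, 2 and 1 counts in hPARG dishes. These counts lie at or under the floor of 3 counts. Its means of 0.00834 RPKM in control and 0.00354 RPKM in hPARG dishes therefore show no difference between the groups.

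All 10 genes of the mannose 6-phosphate pathway, in which the Igf2r protein works as a sorting receptor, passed the filter, with 3 higher, 7 lower and a median log2 fold change of -0.06. The lysosomal proteases Ctsd (176 ± 21.3 RPKM in control and 163 ± 17.7 RPKM in hPARG dishes) and Ctsl (78.6 ± 12.1 and 71.0 ± 6.92 RPKM) were the most abundant. Nagpa, the enzyme that uncovers the mannose 6-phosphate tag, had 181, 169 and 149 counts in control and 111, 118 and 124 counts in hPARG dishes. Each hPARG dish was below every control dish, and the log2 fold change was -0.45 (SE 0.13, unadjusted p = 0.00892, adjusted p = 0.829 by edgeR), which did not pass the threshold.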

How the data were processed

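Poly(A) RNA of 6 dishes of one mouse 3T3 clone was sequenced, 3 control and 3 hPARG. The authors trimmed paired-end reads, mapped them to GRCm38 in CLC Genomics Workbench and deposited counts per gene, whole numbers without normalization, which all tests used. The authors also deposited RPKM values, counts divided by gene length and library total. They were used here to compare levels between genes and to describe the markers and listed genes in each group. They were also used for the ratios within a dish and to read overlap between the groups for Igfbp7. No test used them. Their CPM and TPM columns and their own comparisons (fold changes, p-values, group maxima) were not used. Groups and replicate numbers came from the sample titles. The 10 members and the gene lists were chosen with earlier results of these data known.

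Genes that passed filterByExpr (minimum count 10) were normalized by TMM and compared between groups by edgeR 4.0.16 (glmQLFit, then glmQLFTest), which ran under R 4.3.3 with limma 3.58.1. p-values were adjusted by Benjamini-Hochberg over all tested genes, with an FDR threshold of 0.05 and a second rule of more than 2-fold. Standard errors are the absolute log2 fold change over the square root of F, and intervals use the t distribution of the fit. The scripts were first run on simulated counts with known differences. With 3 dishes per group an exact permutation test cannot give a p under 0.1, and the number of dishes limits the precision. Named were all members, genes whose exons overlap theirs, the 2 most abundant genes and the 1 with the largest difference of each list, and the 3 genes most like each of 2 members. Insr, Ins1, Ins2, Pappa, Ghr, Grb14, Stc2, the marker genes and the genes at 0 counts were named after their values were seen. Alternatives were DESeq2 1.42.0, RLE factors, no scaling beyond library size, all genes kept, 10 counts or more required of each dish, a replicate block, an exon length correction (spline with 4 degrees of freedom per dish) and dishes left out, and the sum of Igf2 and Gm49394 was added after the data were seen. Gene coordinates and exons come from GENCODE M21 (GRCm38), in which all 41819 identifiers were found and 177 names differed, and promoter windows from RefSeq (GRCm38.p6).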

Additional observations from a re-analysis of the deposited data

How the results depend on the processing

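The replicate numbers were not taken as pairs, because the deviations of same-numbered dishes correlated at 0.0963, 0.61 and 0.168 (numbers 1, 2 and 3), and hPARG dish 1 correlated best with control dish 3 (0.335) and hPARG dish 3 with control dish 1 (0.208). With the replicate block, 330 genes (2.87% of 11509) passed an FDR of 0.05 and 23 of them the 2-fold rule as well, against 10 and 10 without it. At an FDR under 0.05 the block called 1 IGF member, Igfbp7 (log2 fold change -0.31, SE 0.0663, adjusted p = 0.0257). It was the only call among the members and pathway genes that the block changed. With the block and the exon length correction these counts were 276 (2.4% of 11509), 25 and 1 (Igfbp7, adjusted p = 0.031), and 1 pathway gene, Foxo3, was called. The other counts by both rules were 52 and 22 with DESeq2, 16 and 16 with no filter, 25 and 19 with the exon length correction, 40 and 19 without the dishes numbered 2, and 3 to 13 by either rule with 1 dish left out. Members whose groups did not overlap numbered 0 in the comparison as given (9.62% of all tested genes) and 4 without the dishes numbered 2 (35.4%). They numbered 1 with library size only, 1 with the exon length correction (Igfbp7 in both) and 0 to 3 with 1 dish left out. For these settings the share over all tested genes was not computed, so the counts are not read as a result about the members. Over the alternatives run for each, Igf1, Igf1r, Igf2, Igfbp4 and Igfbp7 kept their direction, and adjusted p ran from 0.483 to 1 for Igf1, 0.161 to 1 for Igf1r, 0.11 to 1 for Igf2, 0.521 to 1 for Igfbp4, 0.391 to 1 for Igfbp6, 0.841 to 1 for Igf2r and 0.0257 to 1 for Igfbp7. Igf2r turned to -0.0055 with library size only, -0.0185 with the exon length correction and -0.0237 with that correction and the block, and ranged from -0.27 to 0.29 with 1 dish left out, when Igfbp6 ranged from -0.0151 to 0.28. The cause of these turns was not tested. Igf1 and Igf2 had no value under the filter of at least 10 counts in every dish, which they did not pass. The low counts of Igf1, Igf2, Igfbp2, Igfbp3 and Igfbp5 limit what can be said of them at this depth.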

Other observations

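Igf2 and Igf2r belong to imprinted regions, and a list of 12 imprinted genes was read beside them. H19, which shares its control region with Igf2, had 0 counts in every dish, as had Airn, Igf2os, Meg3, Slc22a2 and Slc22a3, and only 2 of the 12 passed the filter. Peg3 was at 1.30 ± 0.376 RPKM in control and 1.33 ± 0.300 RPKM in hPARG dishes (SD, n = 3 each), with a log2 fold change of 0.06 (SE 0.217, adjusted p = 0.999 by edgeR). Dlk1 was at 0.184 ± 0.0268 and 0.192 ± 0.0125 RPKM, with a log2 fold change of 0.10 (SE 0.255). A count of 0 allows a level of up to 0.119 to 0.139 CPM, depending on the dish, if the gene was counted. The noncoding genes looked up (H19, Airn, Igf2os, Meg3, Igf1os, Mir483 and Gm34648) all had 0 counts in every dish. Whether such genes were counted was not tested, so this bound may not hold for them.

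The growth hormone receptor and its pathway to STAT5, which induce Igf1 in liver, were expressed in part. Of 5 genes, 4 passed the filter and none was called. Stat5b was at 8.55 ± 0.952 RPKM in control and 8.47 ± 0.974 RPKM in hPARG dishes, and Jak2 at 8.32 ± 2.30 and 8.21 ± 1.97 RPKM. Ghr was at 5.74 ± 0.464 and 5.82 ± 0.812 RPKM, and the largest difference was that of Stat5a, with a log2 fold change of -0.10 (SE 0.187, adjusted p = 0.999).

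Of the 11 fibroblast genes, 4 were higher in every hPARG dish than in any control dish (Col1a1, Col3a1, Col6a1 and Thy1) and 1, Pdgfra, was lower, against 3.61% and 6.00% of all tested genes, and none was called at an FDR under 0.05 by edgeR (smallest adjusted p = 0.946). Thy1, a surface protein of fibroblasts, was at 66.0 ± 2.50 RPKM in control and 79.6 ± 3.91 RPKM in hPARG dishes, a log2 fold change of 0.30 (SE 0.101). Pdgfra, a growth factor receptor of fibroblasts, was at 6.19 ± 0.753 and 4.59 ± 0.718 RPKM, a log2 fold change of -0.40 (SE 0.128). Whether these genes moved with Igfbp7 was not tested.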
